A study of Homo sapiens with 8 samples.

Results

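The genes described here encode the proteins of tight junctions and desmosomes. They were taken from the deposited count table by symbol: every numbered claudin, the numbered TJP genes, desmogleins (DSG), desmocollins (DSC) and plakophilins (PKP), and OCLN, MARVELD2, MARVELD3, F11R, JUP, DSP, PERP, CGN and CGNL1. The rule gave 47 genes of the 20294 in the table, of which 46 are reported, 32 of tight junctions and 14 of desmosomes. The rule goes by gene name and uses no threshold on these counts.

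HSC-5 is a human cutaneous squamous cell carcinoma line, and the study asked how its transcriptome changes when EZH2, the methyltransferase of the polycomb repressive complex that places the repressive mark on lysine 27 of histone H3, is targeted with Cas9. All cells carried a stable lentiviral Cas9. The sgEZH2-1 group (3 libraries) and the sgEZH2-2 group (3 libraries) received different guide RNAs against EZH2 and were selected with G418, and the Control group (2 libraries) carried the empty vector. The samples were run in triplicate, and the submitters left out 1 Control that clustered apart. The Control spread is therefore that of the 2 kept libraries. It may be narrower than with the Control left out, so p-values against Control may be too small. RNA was collected directly after selection and polyadenylated RNA was sequenced. The guide-treated cells are described as selected populations, and neither the picking of clones nor separate cultures for the replicates is described, so the spread between libraries may be technical and the p-values measure only that spread.

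Tight junctions seal the space between neighbouring epithelial cells. Claudins form the sealing strands and the paracellular pores, OCLN and the related MARVEL proteins sit in the strands, and the ZO scaffolds (TJP genes) with cingulin (CGN) and paracingulin (CGNL1) tie the strands to actin. Desmosomes are spot junctions that anchor keratin filaments: desmogleins and desmocollins are their adhesive cadherins, JUP and the plakophilins bind the cadherin tails, and desmoplakin (DSP) reaches to the filaments. In epidermis the desmosome carries much of the mechanical strength, and tight junctions are assembled in the granular layer.

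The promoter sequences of 5 tight junction genes are shown because these genes carry the changes described below. They include the 2 cingulins, which were higher with each guide, CLDN1, which was lower with each guide, and OCLN, which differed most between the guides. CLDN4, the most abundant claudin, is shown as well, and its sequence alone among the 5 was CpG-poor. Each line gives the 250 bases before the furthest upstream RefSeq gene start (GRCh38.p14), 5′ to 3′ on the gene's strand, with every CpG, the dinucleotide in which DNA is methylated, in capitals.
CGN: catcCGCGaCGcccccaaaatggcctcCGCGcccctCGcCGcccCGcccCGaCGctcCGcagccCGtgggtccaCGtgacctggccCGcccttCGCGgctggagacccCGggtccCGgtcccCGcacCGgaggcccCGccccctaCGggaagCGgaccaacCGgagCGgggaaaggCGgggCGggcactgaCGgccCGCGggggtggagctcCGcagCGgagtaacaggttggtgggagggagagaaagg
CGNL1: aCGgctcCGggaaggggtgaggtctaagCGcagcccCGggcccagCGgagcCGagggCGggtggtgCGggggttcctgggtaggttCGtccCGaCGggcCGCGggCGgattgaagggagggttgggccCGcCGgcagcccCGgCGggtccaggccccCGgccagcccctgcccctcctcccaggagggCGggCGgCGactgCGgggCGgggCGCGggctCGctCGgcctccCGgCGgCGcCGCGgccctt
OCLN: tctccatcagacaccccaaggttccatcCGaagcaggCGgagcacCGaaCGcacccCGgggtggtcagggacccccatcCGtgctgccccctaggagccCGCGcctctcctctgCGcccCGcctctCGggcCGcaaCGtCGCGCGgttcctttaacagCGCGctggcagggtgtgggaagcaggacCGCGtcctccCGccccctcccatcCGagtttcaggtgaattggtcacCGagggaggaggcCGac
CLDN1: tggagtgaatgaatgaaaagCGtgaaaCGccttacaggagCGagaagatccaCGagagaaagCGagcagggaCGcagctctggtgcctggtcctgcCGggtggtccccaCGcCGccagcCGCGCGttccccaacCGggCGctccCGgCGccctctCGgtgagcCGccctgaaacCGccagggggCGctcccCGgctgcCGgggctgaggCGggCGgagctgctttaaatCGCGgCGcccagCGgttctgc
CLDN4: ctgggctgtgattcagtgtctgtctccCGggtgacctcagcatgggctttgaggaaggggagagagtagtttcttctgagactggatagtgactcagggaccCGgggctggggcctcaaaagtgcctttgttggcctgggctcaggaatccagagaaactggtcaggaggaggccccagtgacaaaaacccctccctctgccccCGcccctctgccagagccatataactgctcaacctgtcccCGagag

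These windows lie at chr1:151511137-151511386 (plus strand) for CGN, chr15:57376255-57376504 (plus) for CGNL1, chr5:69492297-69492546 (plus) for OCLN, chr3:190322447-190322696 (minus) for CLDN1 and chr7:73830746-73830995 (plus) for CLDN4. The GENCODE gene spans given below begin upstream of the windows of CGN, CGNL1, OCLN and CLDN4, which thus lie within the annotated genes. The CLDN1 window crosses the GENCODE start of its gene. For CLDN4 the span begins at 73799542, far from its window, and the sequence before that start is not shown. The CGN window held 32 CpG and the CGNL1 window 33, a number reached by 9.52% and 8.14% of the 35114 RefSeq windows of the same length. OCLN had 24 (reached by 23.7% of windows) and CLDN1 had 28 (15.9%). CLDN4 had 4, a number reached by 70.7% of windows, against a median of 11 over all of them. High numbers were not particular to the genes shown. PERP had 34 and DSP 33, though neither was called in any comparison, and CLDN11, which was nearly silent, had 29. The CpG of both DNA strands coincide, so each was counted once. The count describes the letters of these windows and says nothing of EZH2 or histone marks there, which were not measured.

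The libraries held 12607952 to 15468597 counts each. EZH2 itself was measured at 56.4, 56.3 and 48 CPM (counts per 1000000 counts of the TMM-scaled library) with sgEZH2-1, at 73.8, 67.5 and 65.1 CPM with sgEZH2-2 and at 82.7 and 84.1 CPM in Control, with no overlap between the groups. Its mean was 64.2% of Control with sgEZH2-1 (log2 fold change -0.64, adjusted p = 0.000529) and 82.5% with sgEZH2-2 (log2 fold change -0.28, adjusted p = 0.0699, and 0.0473 without sgEZH2-1 library 3). A Cas9 cut alters the coding sequence and need not remove the transcript, so these levels do not measure the protein. Of 8 keratinocyte markers all passed the filter on low counts, with KRT5 at 19867 to 29937 counts per library, but KRT14, the usual partner of KRT5 in basal keratinocytes, had 3 to 21 counts. The simple epithelial keratins KRT8 and KRT18 were abundant. Lists of markers of other cell types held genes with no count in any library, namely KDR (endothelium), COL1A2 (fibroblast), CD3E (T cells), TYR and DCT (melanocyte) and DES and MYH7 (muscle). The same lists held expressed genes: CDH5 of endothelium ran at 74.6 to 180.0 CPM, MITF of melanocytes at 24.5 to 30.6 CPM, CD68 of macrophages at 9.36 to 15.1 CPM and COL1A1 of fibroblasts at 4.25 to 13.8 CPM over all libraries. In bulk RNA, fewer cells of a kind and less RNA per cell cannot be told apart.

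Of the 46 genes, 27 passed the filter on low counts and could be tested, 16 of tight junctions and 11 of desmosomes. The other 19 were silent or nearly so. They comprise 16 of the 24 claudins together with DSC1, DSG1 and DSG4, and none exceeded 9 counts in any library. CLDN22, CLDN24, CLDN25 and CLDN34 had no count in any library, and the 19 genes together had 13 to 21 counts per library with sgEZH2-1, 14 to 18 with sgEZH2-2 and 16 to 23 in Control. A count of 0 allows up to 3 counts, which is 0.194 to 0.238 CPM at these depths and covers counting error only. CLDN3, whose gene neighbours CLDN4 on chromosome 7, had 1 to 8 counts per library, and CLDN5, the claudin of vascular endothelium, had 0 to 4.

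Per kilobase of annotated exon, the transcripts with the highest mean levels were PERP, a p53-regulated tetraspan protein of desmosomes, and DSG2, the desmoglein of simple and proliferating epithelia. PERP averaged 127.5 ± 3.29 CPM per kb with sgEZH2-1, 119.5 ± 7.76 with sgEZH2-2 and 132.9 ± 20.5 in Control (SD, n = 3, 3 and 2 here and below). DSG2 averaged 125.0 ± 1.1 CPM per kb with sgEZH2-1, 105.9 ± 2.5 with sgEZH2-2 and 115.0 ± 7.43 in Control. CLDN4 was the most abundant claudin, with 110.7 ± 13.8 CPM per kb with sgEZH2-1, 96.9 ± 5.42 with sgEZH2-2 and 80.1 ± 6.71 in Control. JUP averaged 88 ± 14.9 CPM per kb with sgEZH2-1, 103.1 ± 10.8 with sgEZH2-2 and 98.1 ± 7.12 in Control. Its mean was thus above that of CLDN4 with sgEZH2-2 and in Control. Within each gene family, 1 or 2 members held most of the CPM per kb. CLDN4 made up 74.3 ± 1.92% of all claudin CPM per kb with sgEZH2-1, 69 ± 0.974% with sgEZH2-2 and 63.7 ± 3.63% in Control, and DSG2 made up 89 ± 0.094% of the desmogleins with sgEZH2-1, 88.1 ± 0.501% with sgEZH2-2 and 86.7 ± 0.232% in Control. DSC3, the desmocollin of the basal and suprabasal epidermis, held 75.8 ± 0.43% of the desmocollins with sgEZH2-1, 76.9 ± 0.672% with sgEZH2-2 and 79 ± 0.667% in Control. Such shares depend on the annotated exon length, which is 7.06 kb for DSC3 and 12.5 kb for DSC2. In counts, the ratio of DSC3 to DSC2 was 1.8 ± 0.0346 with sgEZH2-1, 1.9 ± 0.0659 with sgEZH2-2 and 2.16 ± 0.122 in Control. Among the plakophilins no gene held more than 47.1% in any library.

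**Figure D1:**
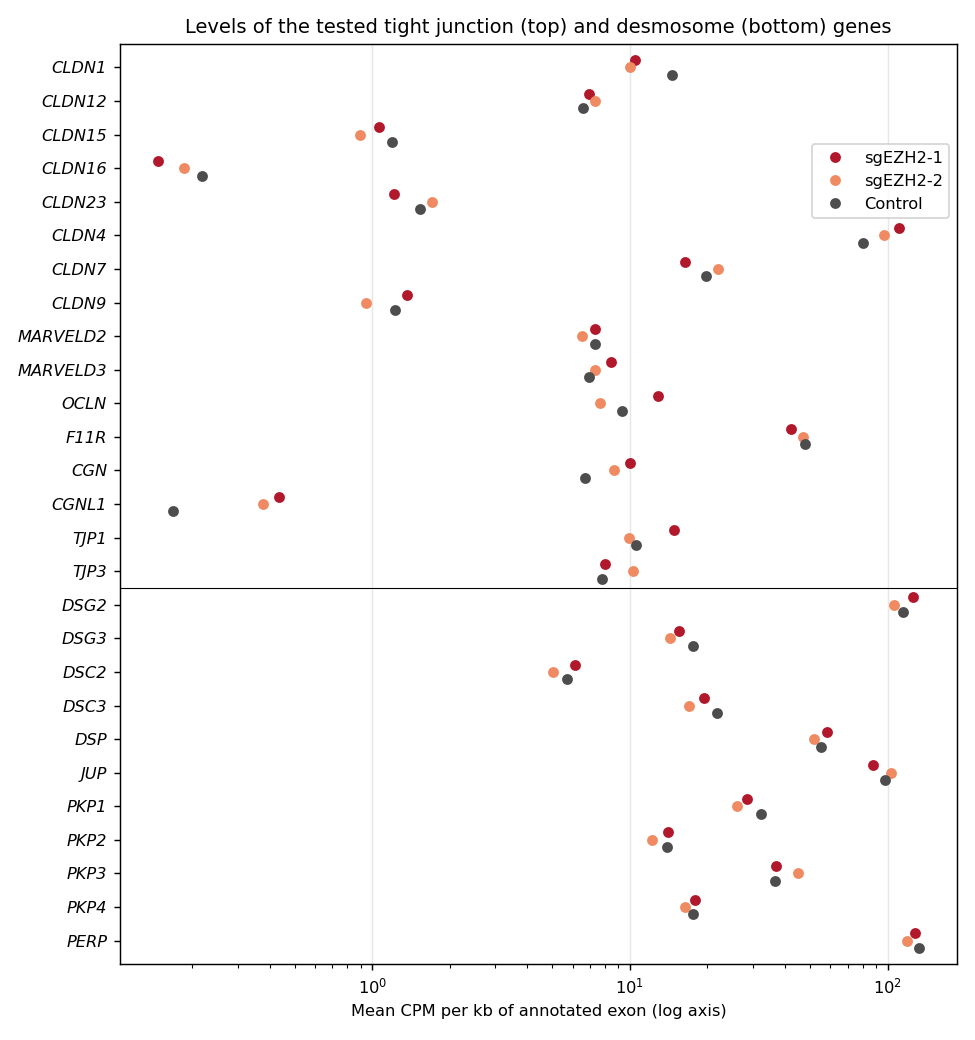
Mean CPM per kb of annotated exon (log axis) of the 27 tested genes, with tight junction genes above the line and desmosome genes below it, and 1 point for each of sgEZH2-1, sgEZH2-2 and Control. PERP, DSG2, CLDN4 and JUP stand near 100 CPM per kb, while CLDN16 and CGNL1 lie under 1, and the 3 groups of most genes nearly coincide.

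With sgEZH2-1, 8 of the 27 tested genes passed the test against Control (edgeR's quasi-likelihood test, Benjamini-Hochberg adjusted p of at most 0.05 over all 13124 genes tested). CGN, CGNL1, OCLN, TJP1, CLDN4 and MARVELD3 rose and CLDN1 and CLDN7 fell. All 8 belong to tight junctions, while 0 of 11 desmosome genes were called. The 8 are 29.6% of the tested members, against 20.8% of all genes tested. The 6 genes called higher are 22.2% of the tested members, against 11.3% of all genes tested, and the 2 called lower are 7.41%, against 9.51%. The median log2 fold change was 0.02 over the 27 members and -0.01 over all genes. No test of the list as a whole was made. For 13 of 27 members the sgEZH2-1 libraries all lay on 1 side of both Control libraries, which also held for 48.0% of all genes. Leaving out sgEZH2-1 library 1, 2 or 3, the number called lower was 3, 0 or 1. Over all genes those fits called 1145, 693 and 903 lower, against 1248 with all libraries.

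With sgEZH2-2, 6 of the 27 passed (22.2%, against 8.68% of all genes). CGN and CGNL1 rose, and CLDN1, DSC3, DSG3 and PKP1 fell. The 2 called higher are 7.41% of members, against 6.18% of all genes, and the 4 called lower are 14.8%, against 2.50%. The median log2 fold change was -0.10 over the members and 0.00 over all genes. For 18 of 27 members the libraries did not overlap with Control, against 39.7% of all genes. Both contrasts share the same 2 Control libraries, so the calls made in each are not independent. The number called higher was 1 without sgEZH2-2 library 2 and 4 without sgEZH2-1 library 1. Over all genes those fits called 550 and 957 higher, against 811 with all libraries. The number called lower was 2 without sgEZH2-2 library 2 or 3. Over all genes the 328 called lower fell to 110 and 127 in those fits, so the 2.50% is itself unsteady.

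The 2 guides were also compared with each other, which tests whether their effects differ. DSC2, DSC3, DSG2, PKP2, OCLN, MARVELD3 and TJP1 were higher with sgEZH2-1 than with sgEZH2-2, and CLDN7 and TJP3 were lower. The 9 are 33.3% of the tested members, against 21.9% of all genes. The 7 called higher are 25.9% of members, against 10.4% of all genes, and the 2 called lower are 7.41%, against 11.5%. The median log2 difference was 0.16 over the members and -0.01 over all genes. The libraries of the guides did not overlap for 13 of 27 members, against 42.2% of all genes. The number called higher was 3 without sgEZH2-1 library 2, sgEZH2-2 library 2 or sgEZH2-2 library 3, and each of these left 1 called lower. Over all genes those fits called 754, 692 and 737 higher, against 1363 with all libraries. They called 937, 829 and 835 lower, against 1511. With both guides pooled against Control, in a fit that counts a difference between guides as spread, CGN and CGNL1 were called higher (7.41% of members, 3.76% of all genes) and CLDN1 lower (3.7% of members, 0.594% of all genes), 11.1% of members in all against 4.36% of all genes. There the libraries did not overlap for 8 of 27 members, against 19.9% of all genes. Without sgEZH2-1 library 2, 1 member was called higher, and all genes called higher fell from 494 to 432. Among fits without 1 guide library, CLDN1 was called lower only without sgEZH2-1 library 1. All genes called lower were 23 to 52 in those fits, against 78 with all libraries. In the fit of 3 groups the pooled comparison called 4 members higher and 4 lower. Over all genes it called 1010 higher and 602 lower.

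**Figure D2:**
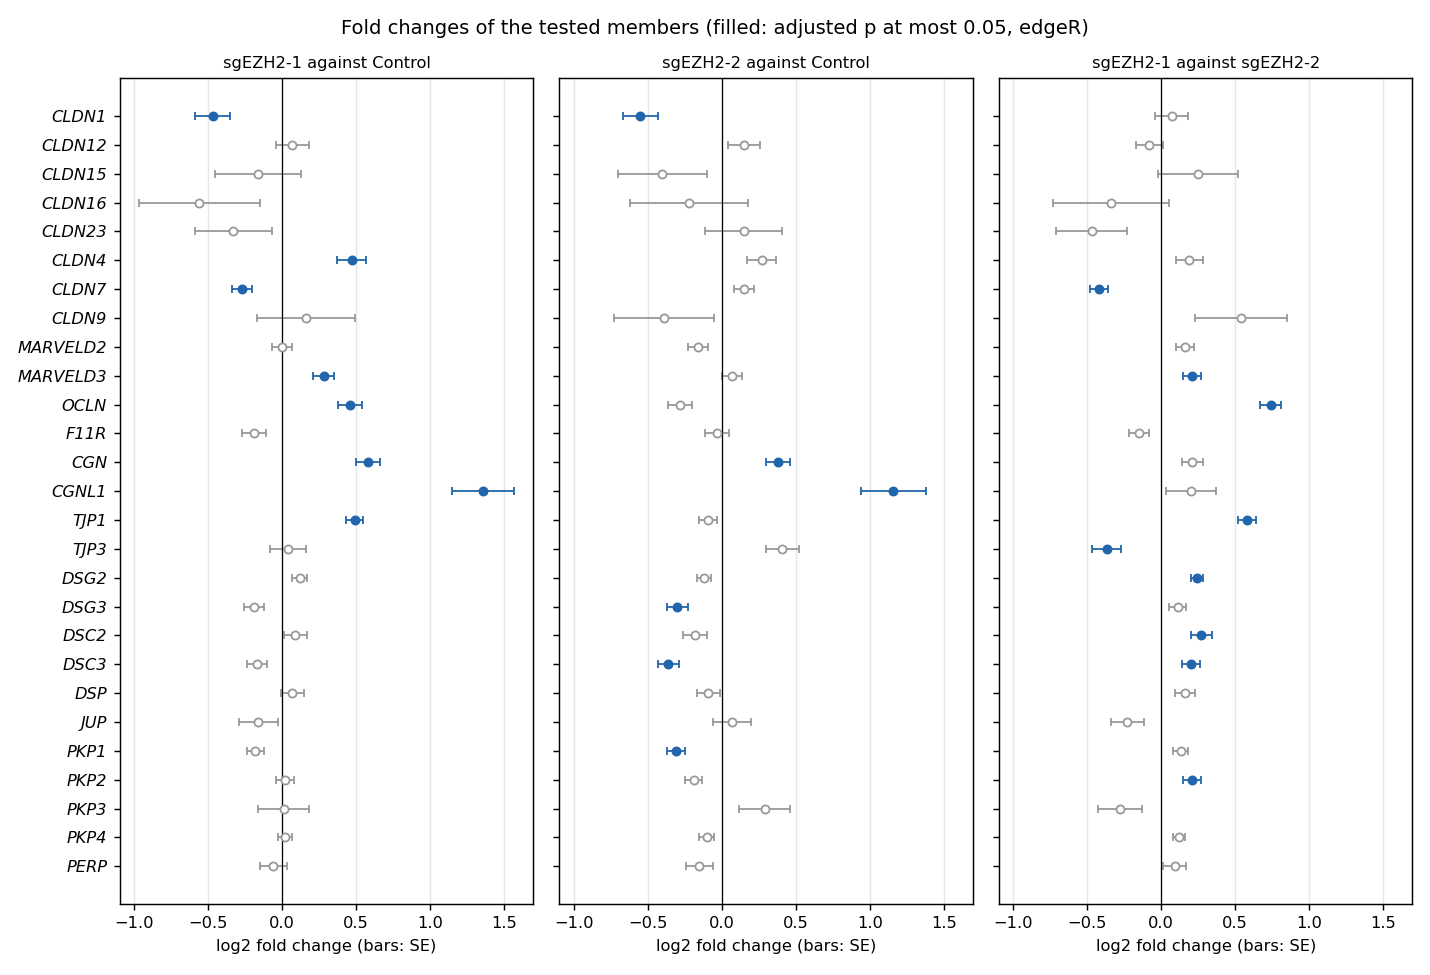
Log2 fold changes of the 27 tested genes in the 3 comparisons of the fit of 3 groups (sgEZH2-1 against Control, sgEZH2-2 against Control, sgEZH2-1 against sgEZH2-2), with bars for the SE and filled points for an adjusted p of at most 0.05. CGNL1 lies farthest to the right for each guide against Control (1.36 and 1.16), and OCLN (0.74) and TJP1 (0.58) lie farthest to the right in the comparison of the guides among filled points.

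Cingulin and paracingulin, which link the junctional plaque to actin and microtubules, were the members called higher with each guide. CGN (chromosome 1, 151510510 to 151538692, GRCh38) had 64.5, 65.4 and 69.4 CPM with sgEZH2-1 and 55.7, 61.7 and 55.1 CPM with sgEZH2-2, against 47.5 and 41.2 CPM in Control. Every guide library lay above both Control libraries, and the sgEZH2-1 libraries lay above those of sgEZH2-2. On the log2 scale CGN was higher by 0.58 ± 0.08 (SE) with sgEZH2-1 (adjusted p = 0.000839) and 0.38 ± 0.08 with sgEZH2-2 (adjusted p = 0.0209), and the difference of 0.21 ± 0.07 between the guides missed the threshold (adjusted p = 0.0649), though it passed without either Control library (adjusted p = 0.0477 and 0.0453) or with only the 2 groups compared (adjusted p = 0.0427). CGNL1 (chromosome 15, 57375967 to 57550727) was a low transcript. It had 3.78, 3.62 and 3.92 CPM with sgEZH2-1 and 3.79, 2.83 and 3.2 CPM with sgEZH2-2, against 1.49 and 1.43 CPM in Control. All 6 guide libraries were above both Control libraries. Its log2 fold changes were 1.36 ± 0.21 for sgEZH2-1 (adjusted p = 0.00155) and 1.16 ± 0.22 with sgEZH2-2 (adjusted p = 0.00892), the largest among the reported members in both comparisons. In the pooled comparison CGN was higher by 0.48 and CGNL1 by 1.27 on the log2 scale (adjusted p = 0.0299 and 0.00866). The sgEZH2-2 calls of CGN were lost without Control library 2 or sgEZH2-2 library 2 and those of CGNL1 without either Control library (adjusted p up to 0.14 and 0.0662), and the pooled calls were lost without either Control library and, for CGN, without sgEZH2-1 library 2 (adjusted p up to 0.279 and 0.11).

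Of the ZO scaffolds reported, which bind claudin and occludin tails and nucleate the strand, TJP1 rose with sgEZH2-1 alone among the comparisons with Control. TJP1 (chromosome 15, 29699367 to 29968865) had 164.3, 170.1 and 167.2 CPM with sgEZH2-1 and 117.0, 104.6 and 114.2 CPM with sgEZH2-2, against 114.7 and 124.0 CPM in Control. The sgEZH2-1 libraries lay apart from the other 5, and those of sgEZH2-2 overlapped with Control. TJP1 was higher by 0.49 ± 0.06 on the log2 scale with sgEZH2-1 (adjusted p = 0.000524), and sgEZH2-1 exceeded sgEZH2-2 by 0.58 ± 0.06 (adjusted p = 0.000126). TJP3, the ZO protein most restricted to epithelia, went the other way. It had 32.7, 31.9 and 36.3 CPM with sgEZH2-1 and 37.6, 49.5 and 43.7 CPM with sgEZH2-2, against 34.4 and 31.1 CPM in Control, so the sgEZH2-1 libraries overlapped with Control and those of sgEZH2-2 lay above. It was lower with sgEZH2-1 than with sgEZH2-2 by a log2 difference of -0.37 ± 0.10 (adjusted p = 0.0266), while 0.41 ± 0.11 for sgEZH2-2 against Control missed the threshold (adjusted p = 0.0537). That miss is narrow: TJP3 was called higher with sgEZH2-2 under upper-quartile scaling, no filter and DESeq2 and without sgEZH2-1 library 1 or sgEZH2-2 library 1 (adjusted p = 0.0135 to 0.0486). The TJP3 call was lost without sgEZH2-1 library 1 or 2 or sgEZH2-2 library 2 or 3 (adjusted p up to 0.105).

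OCLN, the first described transmembrane protein of tight junctions, had the largest difference between the guides of any reported member. OCLN (chromosome 5, 69492292 to 69558104) had 83.6, 86.2 and 89.2 CPM with sgEZH2-1 and 53.5, 46.5 and 55.2 CPM with sgEZH2-2, against 59.8 and 65.6 CPM in Control. The sgEZH2-1 libraries all lay above Control and the sgEZH2-2 libraries all below. On the log2 scale OCLN was higher by 0.46 ± 0.08 with sgEZH2-1 (adjusted p = 0.00305). With sgEZH2-2 it was -0.28 ± 0.08 and missed the threshold (adjusted p = 0.0671), and the difference between the guides was 0.74 ± 0.07 (adjusted p = 0.000138). MARVELD3, a relative of OCLN in the strands, rose by 0.28 ± 0.07 with sgEZH2-1 (adjusted p = 0.0204). It had 50.8, 55 and 56.8 CPM with sgEZH2-1 and 47.7, 45.3 and 47.9 CPM with sgEZH2-2, against 45.6 and 43.8 CPM in Control, and the sgEZH2-1 libraries lay above the other 5. It was also higher with sgEZH2-1 than with sgEZH2-2 (0.21 ± 0.06, adjusted p = 0.0412). MARVELD2 (tricellulin), which concentrates where 3 cells meet, passed in no comparison, with 38.5 to 39.7 CPM with sgEZH2-1, 33.4 to 35.9 with sgEZH2-2 and 39 to 39.2 in Control. The ratio of OCLN to MARVELD2 counts within a library, which no scaling can change, was 2.21 ± 0.105 with sgEZH2-1, 1.48 ± 0.0853 with sgEZH2-2 and 1.6 ± 0.108 in Control. OCLN has an annotated pseudogene copy on chromosome 5, and MARVELD3 shares 16.6% of its exon bases with PHLPP2 on the opposite strand, so their counts are uncertain. The MARVELD3 calls were lost without either Control library or sgEZH2-1 library 2 against Control (adjusted p up to 0.0913) and, between the guides, without any one of sgEZH2-1 libraries 2 and 3 and the sgEZH2-2 libraries (adjusted p up to 0.148).

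Claudins changed in both directions. CLDN4 (chromosome 7, 73799542 to 73832693), a sealing claudin of many epithelia, rose with sgEZH2-1 by 0.47 ± 0.10 on the log2 scale (adjusted p = 0.00762). It had 451.3, 529.6 and 580.0 CPM with sgEZH2-1 and 427.3, 476.8 and 462.5 CPM with sgEZH2-2, against 399.0 and 354.3 CPM in Control. All guide libraries lay above both Control libraries, but 0.27 ± 0.10 for sgEZH2-2 missed the threshold (adjusted p = 0.118), and the difference between the guides missed it too (0.19 ± 0.09, adjusted p = 0.135). The CLDN4 call was lost without Control library 2 (adjusted p = 0.0597). Without sgEZH2-1 library 1, CLDN4 was called with sgEZH2-2 (adjusted p = 0.0301) and between the guides (0.28, adjusted p = 0.0159), and with only the 2 groups compared it was called with sgEZH2-2 (adjusted p = 0.0397). CLDN1 (chromosome 3, 190305701 to 190322475), which the epidermal barrier needs, was called lower in all 3 comparisons with Control. It had 38.3, 36.9 and 40.2 CPM with sgEZH2-1 and 36.9, 36.1 and 36.6 CPM with sgEZH2-2, against 44.1 and 62.5 CPM in Control. The 6 guide libraries lay close together below both Control libraries, which differed from each other 1.42-fold. The fit gave log2 fold changes of -0.47 ± 0.12 for sgEZH2-1 (adjusted p = 0.0206), -0.55 ± 0.12 with sgEZH2-2 (adjusted p = 0.0212) and -0.51 ± 0.11 pooled (adjusted p = 0.0325). The size of the CLDN1 change rests on Control library 2: without it the fits gave -0.20 for sgEZH2-1 (adjusted p = 0.143), -0.27 with sgEZH2-2 (adjusted p = 0.118) and -0.23 pooled (adjusted p = 0.357), and none was called. The CLDN1 calls were also lost without sgEZH2-1 library 2 for sgEZH2-1 (adjusted p = 0.0773), without any one sgEZH2-2 library for sgEZH2-2 (adjusted p up to 0.07), and pooled without any one of sgEZH2-1 libraries 2 and 3 and the sgEZH2-2 libraries.

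CLDN7 (chromosome 17, 7259903 to 7263983), which lies along the lateral membrane as well as in the strand, fell with sgEZH2-1 only among comparisons with Control. It had 40.5, 41.4 and 40.7 CPM with sgEZH2-1 and 52.8, 57.6 and 53.6 CPM with sgEZH2-2, against 50.9 and 47.4 CPM in Control. The sgEZH2-1 libraries lay below Control and the sgEZH2-2 libraries above it. The fit gave -0.27 ± 0.07 on the log2 scale for sgEZH2-1 (adjusted p = 0.0213), against 0.15 ± 0.07 with sgEZH2-2 (adjusted p = 0.215), and the difference between the guides was -0.42 ± 0.06 (adjusted p = 0.00133). The call against Control was lost without Control library 1 or sgEZH2-1 library 2 or 3 (adjusted p up to 0.166), whereas the difference between the guides was called without any single library. CLDN7 shares 10.8% of its exon bases with another gene of the table on the same strand. The remaining tested claudins passed in no comparison: CLDN12 had 39.7 to 53.7 CPM over all libraries, CLDN15, CLDN23 and CLDN9 lay at 1.45 to 4.57 CPM, and CLDN16, whose gene stands beside CLDN1 on chromosome 3, lay at 0.342 to 0.782 CPM. F11R (JAM-A), the junctional adhesion molecule among the members, had 239.6, 206.6 and 195.4 CPM with sgEZH2-1 and 241.8, 235.6 and 236.6 CPM with sgEZH2-2, against 249.3 and 237.3 CPM in Control. The groups overlapped and it passed in no comparison with all libraries, but without sgEZH2-1 library 1 F11R was lower with sgEZH2-1 against Control (-0.27, adjusted p = 0.00625) and against sgEZH2-2 (-0.24, adjusted p = 0.00865). It shares 36.6% of its exon bases with another gene of the table on the same strand.

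Summed over the 32 tight junction genes, the level was 1320.6 ± 56.7 CPM with sgEZH2-1, 1193.6 ± 18.8 CPM with sgEZH2-2 and 1122.3 ± 20.8 CPM in Control. CLDN4 is the largest part of that sum.

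**Figure D3:**
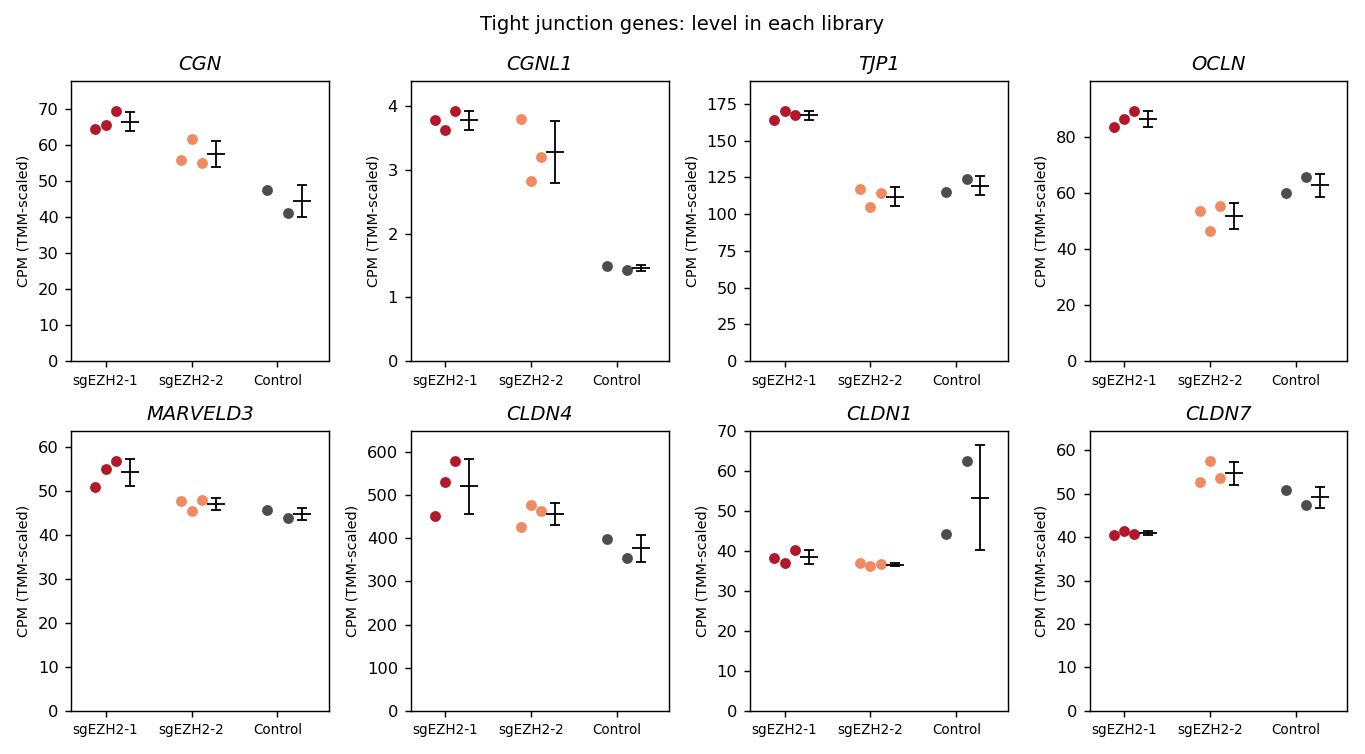
CPM of tight junction genes in each library (points) with the mean and SD of each group, from left to right sgEZH2-1, sgEZH2-2 and Control, on axes that start at 0. OCLN and TJP1 are high with sgEZH2-1 only, CGN and CGNL1 are above Control with both guides, and for CLDN1 the Control libraries stand apart at 44.1 and 62.5 CPM.

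Of the 11 desmosome genes tested, 0 were called with sgEZH2-1 (20.8% of all genes were), where their median log2 fold change was 0.01. With sgEZH2-2, DSC3, DSG3 and PKP1 were called lower, 3 of 11, against 2.50% of all genes, and the median was -0.15. Between the guides 4 of 11 were higher, against 10.4% of all genes. Whether desmosome and tight junction genes differ in these shares was not tested. Their summed level was 3225.2 ± 62.3 CPM with sgEZH2-1, 3037.9 ± 15.7 CPM with sgEZH2-2 and 3253.1 ± 90.6 CPM in Control.

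The desmosomal cadherin genes form 1 cluster on chromosome 18, in the order DSC3, DSC2, DSC1, DSG1, DSG4, DSG3 and DSG2 over 559.0 kb. The outer genes were transcribed and the 3 in the middle were nearly silent: DSC1 had 2 to 9 counts per library and DSG1 and DSG4 had 0 or 1, while DSG2 had 8171 to 11419. DSC1 and DSG1 are the cadherins of the differentiated upper epidermis, and DSG4 is that of the hair follicle and the uppermost layers. The same 3 genes were under the filter in every group.

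**Figure D4:**
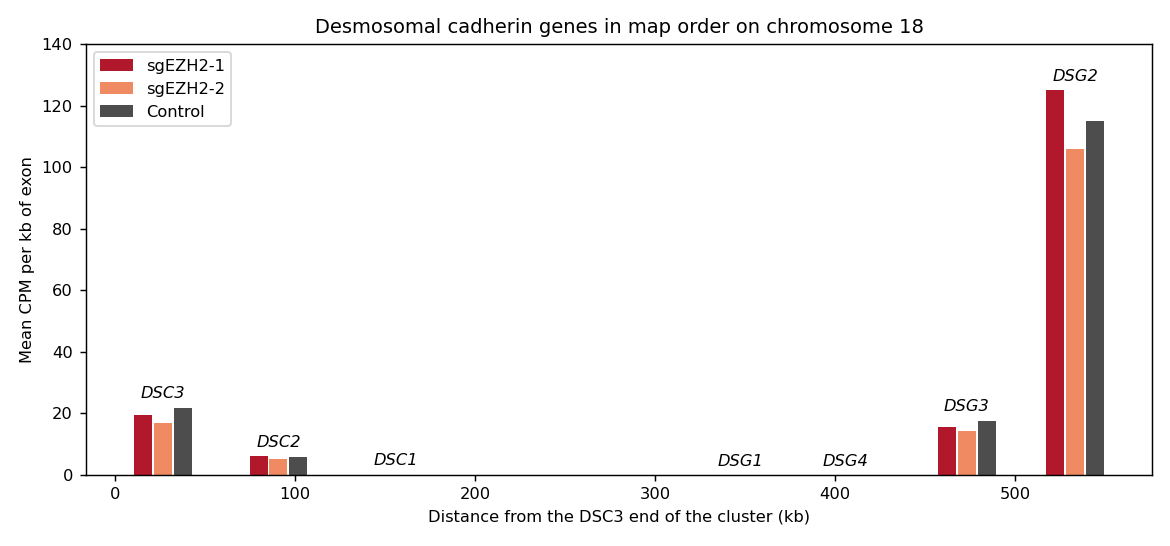
Mean CPM per kb of exon of the 7 desmosomal cadherin genes against the distance of each gene's middle from the DSC3 end of the cluster on chromosome 18, with bars for sgEZH2-1, sgEZH2-2 and Control from left to right at each gene. DSG2 stands at 105.9 to 125.0 CPM per kb, while DSC1, DSG1 and DSG4 in the middle of the cluster are at or below 0.0901 CPM per kb.

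DSG2 (chromosome 18, 31498043 to 31549008) had 780.9, 767.5 and 772.0 CPM with sgEZH2-1 and 650.9, 642.4 and 672.4 CPM with sgEZH2-2, against 679.3 and 744.3 CPM in Control. The sgEZH2-1 libraries lay above Control and the sgEZH2-2 libraries below it. Neither guide passed against Control (0.12 ± 0.05, adjusted p = 0.117, with sgEZH2-1 and -0.12 ± 0.05, adjusted p = 0.181, with sgEZH2-2), and the difference between the guides did (0.24 ± 0.04, adjusted p = 0.00456). DSG3, the basal epidermal desmoglein and the antigen of pemphigus vulgaris, had 86.2, 84.3 and 86.3 CPM with sgEZH2-1 and 82.8, 76.5 and 78 CPM with sgEZH2-2, against 91.6 and 103.3 CPM in Control. All guide libraries lay below both Control libraries. It fell by 0.30 ± 0.07 on the log2 scale with sgEZH2-2 (adjusted p = 0.0212), and -0.19 ± 0.07 with sgEZH2-1 missed the threshold (adjusted p = 0.074). The ratio of DSG3 to DSG2 counts within a library was 0.111 ± 0.00101 with sgEZH2-1, 0.121 ± 0.00579 with sgEZH2-2 and 0.137 ± 0.00275 in Control. The DSG3 call was lost without Control library 2, sgEZH2-1 library 2 or sgEZH2-2 library 2 or 3 (adjusted p up to 0.144). With sgEZH2-1, DSG2 was called higher without Control library 2 (adjusted p = 0.0421) and DSG3 lower without Control library 1 (adjusted p = 0.0494).

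DSC3 (chromosome 18, 30990008 to 31042815) had 143.8, 139.6 and 127.6 CPM with sgEZH2-1 and 124.9, 114.6 and 119.2 CPM with sgEZH2-2, against 148.5 and 159.2 CPM in Control. The guide libraries again lay below Control. It fell by 0.36 ± 0.07 with sgEZH2-2 (adjusted p = 0.00819), and -0.17 ± 0.07 with sgEZH2-1 missed the threshold (adjusted p = 0.104). DSC2, the desmocollin found in all desmosome-bearing tissues, had 78.3, 78.8 and 71.5 CPM with sgEZH2-1 and 64, 62.8 and 62.2 CPM with sgEZH2-2, against 66.1 and 76.7 CPM in Control. The sgEZH2-2 libraries lay below all others and those of sgEZH2-1 overlapped with Control. It passed in neither comparison with Control. Both desmocollins were higher with sgEZH2-1 than with sgEZH2-2, DSC2 by 0.27 ± 0.07 (adjusted p = 0.0186) and DSC3 by 0.20 ± 0.06 (adjusted p = 0.0428). The DSC3 call against Control was lost without Control library 2 (adjusted p = 0.0714). Between the guides the DSC3 call was lost without sgEZH2-1 library 1 or 2 or any one sgEZH2-2 library (adjusted p up to 0.154), and the DSC2 call without sgEZH2-1 library 2 or sgEZH2-2 library 2 or 3 (adjusted p up to 0.0832).

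Of the plaque proteins, PKP1, the plakophilin of stratified epithelia, fell with sgEZH2-2 by 0.31 ± 0.06 (adjusted p = 0.0112). It had 165.4, 180.5 and 184.3 CPM with sgEZH2-1 and 155.2, 167.3 and 162.3 CPM with sgEZH2-2, against 203.6 and 196.4 CPM in Control. All guide libraries lay below Control, and -0.18 ± 0.06 with sgEZH2-1 missed the threshold (adjusted p = 0.0628). PKP2, the plakophilin of simple epithelia and heart, had 92.3, 99.5 and 104.7 CPM with sgEZH2-1 and 86.7, 84.5 and 85.5 CPM with sgEZH2-2, against 96.1 and 99.2 CPM in Control. The sgEZH2-2 libraries lay below all others. It was higher with sgEZH2-1 than with sgEZH2-2 by 0.21 ± 0.06 (adjusted p = 0.0273). DSP, which binds keratin filaments, had 624.8, 612.3 and 517.9 CPM with sgEZH2-1 and 555.4, 515.6 and 504.2 CPM with sgEZH2-2, against 559.2 and 558.9 CPM in Control. The sgEZH2-2 libraries lay below Control, the sgEZH2-1 libraries on both sides of it, and no comparison passed. PERP likewise passed in none, with 551.4, 531.4 and 558.7 CPM with sgEZH2-1 and 550.9, 490.5 and 496.5 CPM with sgEZH2-2, against 507.9 and 632.4 CPM in Control. Its groups overlapped. PKP4, PKP3 and JUP (plakoglobin, which also joins adherens junctions) passed in none either. PKP4 ran at 167.0 to 174.7 CPM with sgEZH2-1, 154.6 to 158.6 CPM with sgEZH2-2 and 163.9 to 172.3 CPM in Control, and it has an annotated pseudogene copy on chromosome 2. JUP and PKP3 were the 2 widest spread in sgEZH2-1 among members above 50 CPM: the highest of its libraries exceeded the lowest 1.41-fold for JUP and 1.63-fold for PKP3, against a 95th percentile of 1.35-fold over 4629 genes of that level. In both, library 1 of sgEZH2-1 was lowest, with 359.7 CPM of JUP and 103.9 CPM of PKP3, while the other libraries of that group had 438.2 and 506.9 CPM of JUP and 145.0 and 169.0 CPM of PKP3. JUP ran at 451.1 to 556.3 CPM with sgEZH2-2 and 459.9 to 509.7 CPM in Control, and PKP3 at 155.4 to 186.8 CPM with sgEZH2-2 and 122.9 to 154.2 CPM in Control. The PKP1 call was lost without Control library 1 (adjusted p = 0.0841), and the PKP2 call without sgEZH2-1 library 2 or 3 or sgEZH2-2 library 2 or 3 (adjusted p up to 0.0958). Between the guides, PKP1 was called without sgEZH2-1 library 1 (0.18, adjusted p = 0.0423), and DSP (0.24, adjusted p = 0.014) and JUP (-0.35, adjusted p = 0.0403) without sgEZH2-1 library 3.

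**Figure D5:**
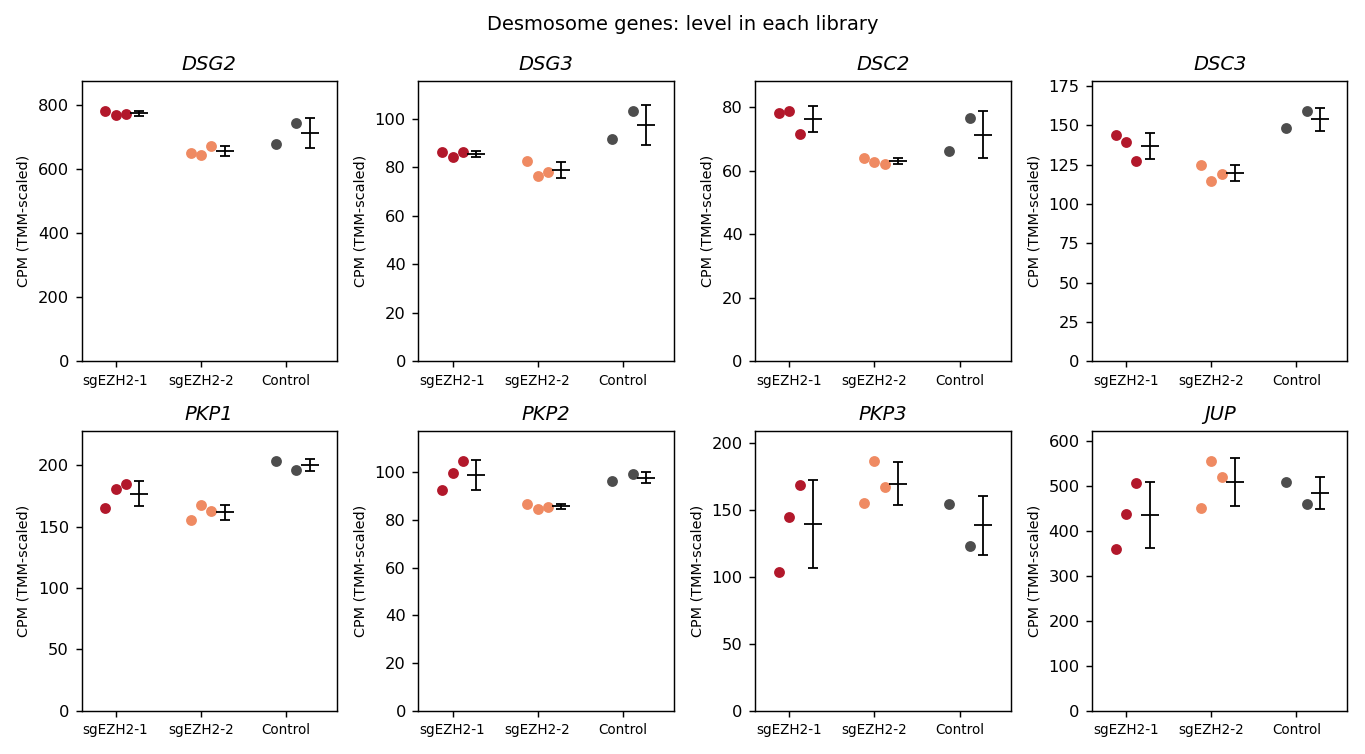
CPM of desmosome genes in each library (points) with the mean and SD of each group, from left to right sgEZH2-1, sgEZH2-2 and Control, on axes that start at 0. DSG3, DSC3 and PKP1 are lowest with sgEZH2-2 and highest in Control, and DSG2, DSC2 and PKP2 are higher with sgEZH2-1 than with sgEZH2-2.

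Other genes of the same junctions were read from 4 lists. These lists were chosen with earlier results of these data known, so their shares beside those of all genes are no test of the lists. Their calls are those with all libraries, and calls lost without a single library are not given for them. Of 10 further tight junction membrane proteins 7 could be tested. With sgEZH2-1, 4 of the 7 rose and 1 fell (11.3% and 9.51% of all genes), and with sgEZH2-2, 2 rose (6.18% of all genes). ESAM, an adhesion molecule best known from endothelium and platelets, averaged 3.35 ± 0.313 CPM with sgEZH2-1 and 2.79 ± 0.395 CPM with sgEZH2-2, against 0.803 ± 0.432 CPM in Control. It rose by 2.04 on the log2 scale with sgEZH2-1 (adjusted p = 0.00137) and by 1.77 with sgEZH2-2 (adjusted p = 0.00749). ESAM also stands among 7 endothelial markers, whose summed level was 80.2 to 84.7 CPM with sgEZH2-1, 145.4 to 163.5 CPM with sgEZH2-2 and 177.9 to 184.9 CPM in Control, nearly all of it CDH5, so that sum ran opposite to ESAM. ILDR2, of the angulin family at tricellular contacts, had 10, 13 and 13 counts with sgEZH2-1 and 5, 2 and 7 counts with sgEZH2-2, against 0 in both Control libraries. Taking 3 counts over both Control libraries as the limit, it was at least 8.43-fold higher with sgEZH2-1 and at least 3.41-fold higher with sgEZH2-2. BVES rose by 1.86 with sgEZH2-1 (adjusted p = 0.000954). The angulin ILDR1 fell by 0.44 with sgEZH2-1 (adjusted p = 0.0458), and its difference between the guides was -0.89 (adjusted p = 0.000943).

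Of 13 adherens junction genes, all tested, 4 rose and 2 fell with sgEZH2-1 (11.3% and 9.51% of all genes), and 1 rose and 1 fell with sgEZH2-2 (6.18% and 2.50% of all genes). The single gene higher with sgEZH2-2 is a share near that of all genes. NECTIN3, an immunoglobulin-like adhesion protein, averaged 7.97 ± 0.736 CPM with sgEZH2-1 and 4.44 ± 0.445 CPM with sgEZH2-2, against 0.296 ± 0.319 CPM in Control, where it had 1 and 8 counts. CDH1 (E-cadherin) averaged 186.2 ± 3.61 CPM with sgEZH2-1 and 140.7 ± 2.55 CPM with sgEZH2-2, against 163.8 ± 8.62 CPM in Control. CDH1 rose by 0.18 with sgEZH2-1 (adjusted p = 0.032) and fell by 0.22 with sgEZH2-2 (adjusted p = 0.0285). The means of OCLN, TJP1, CLDN9, DSG2, DSC2, DSP, PKP2 and PKP4 had the same order. Unlike CDH1, none of these was called lower with sgEZH2-2. NECTIN4 rose by 0.60 (adjusted p = 0.000235) and NECTIN1 fell by 0.47 (adjusted p = 0.000452) with sgEZH2-1.

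Of 21 tested polarity proteins and cytoplasmic partners of tight junctions, PARD6G alone passed with sgEZH2-1 against Control (0.71, adjusted p = 0.0165), where 20.8% of all genes did. With sgEZH2-2 none of them passed, against 8.68% of all genes. MPP5 (PALS1) alone passed between the guides (0.37, adjusted p = 0.0197), where 21.9% of all genes did. Of 9 tested genes of the cornified plaque and the keratins that desmosomes anchor, 5 rose with sgEZH2-1 (11.3% of all genes) and 1 fell with sgEZH2-2 (2.50% of all genes). Periplakin (PPL), which links desmosomes to the cornified envelope, rose by 0.46 with sgEZH2-1 (adjusted p = 0.0021), as did KRT16 by 1.09 (adjusted p = 0.000359) and KRT17 by 0.82 (adjusted p = 0.00581), keratins of injured and proliferating epidermis. KRT5, the gene that fell with sgEZH2-2, did so by 0.36 (adjusted p = 0.00727), and its -0.12 with sgEZH2-1 missed the threshold (adjusted p = 0.241). The other tested keratins of that list leaned higher with sgEZH2-2, by 0.06 to 0.73, and none was called.

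Markers of simple epithelium went both ways. With sgEZH2-1, KRT8 rose by 0.39 (adjusted p = 0.00762) and KRT18 by 0.53 (adjusted p = 0.000473), KRT19 fell by 0.89 (adjusted p = 0.00653), and KRT7 and EPCAM were not called. With sgEZH2-2 none of the 5 was called. Their summed level, most of it KRT8 and KRT18, was 3293.1 to 3690.3 CPM with sgEZH2-1, 2778.4 to 2914.3 CPM with sgEZH2-2 and 2507.4 to 2847.1 CPM in Control, so sgEZH2-2 overlapped with Control. Among the keratinocyte markers, TP63, the transcription factor that maintains stratified epithelia, had 118.6, 104.7 and 104.1 CPM with sgEZH2-1 and 195.2, 180.1 and 182.7 CPM with sgEZH2-2, against 208.3 and 232.5 CPM in Control. TP63 fell by 1.01 on the log2 scale with sgEZH2-1 (adjusted p = 1.27e-05), -0.24 with sgEZH2-2 missed the threshold (adjusted p = 0.0684), and the difference between the guides was -0.77 (adjusted p = 7.05e-05). The summed level of the 8 keratinocyte markers, most of it KRT5 and with DSG3 among them, was 2612.0 to 3214.8 CPM with sgEZH2-1, 2672.7 to 2802.9 CPM with sgEZH2-2 and 3037.2 to 3232.8 CPM in Control. That of 8 fibroblast markers was 5.02 to 8.89 CPM with sgEZH2-1, 11 to 14 CPM with sgEZH2-2 and 6.13 to 7.24 CPM in Control, with COL1A1 alone of them passing the filter. That of 6 leukocyte markers was 14.2 to 18.5 CPM with sgEZH2-1, 11.7 to 13.7 CPM with sgEZH2-2 and 14.1 to 14.6 CPM in Control. The part of these markers in the junction results was not tested.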

How the data were processed

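RNA of 8 HSC-5 libraries was sequenced after a TruSeq Stranded mRNA preparation. The authors deposited 1 table of read counts per gene, with 20294 genes and no row that names no gene. The submitters' processing notes name FastQC, STAR, DESeq and the build hg38; tool versions, counter, gene annotation and strandedness of counting are not stated in these sources. Columns carry the group but no replicate number, so libraries are numbered in the order of the columns, and 0 sample columns were left unused. The 13124 genes that passed filterByExpr (minimum count 10) were fitted with edgeR 4.0.16 (R 4.3.3; TMM scaling, quasi-likelihood F test, threshold 0.05 on the Benjamini-Hochberg adjusted p), in 1 fit of 3 groups, and in a fit of 2 levels for both guides against Control. The SE is the fold change divided by the square root of F. The code was tested on simulated data. CPM per kb uses the union of exons of all GENCODE transcripts (GRCh38). Promoters come from RefSeq, where 36 of the 46 reported members matched. 1 member of the rule is not reported here; it stays in the fits over all genes, and is left out of the members' counts and sums. Alternatives used DESeq2 1.42.0, limma 3.58.1 with voom, other scalings, no filter, only the compared groups, and each library left out. The members and lists were chosen with earlier results of these data known. The rule for named genes was that values in every library are given for members called in any comparison and for the member of highest mean CPM in each role, and at most 4 genes are named per further list, those with the smallest adjusted p. KRT8, KRT18, KRT19, KRT14, TP63, CDH5, MITF, CD68, COL1A1, CLDN3, CLDN5, CLDN16, JUP and PKP3 were singled out after their values were seen. Libraries of 1 group differed by more than sampling noise in each pair, so none was counted as a duplicate.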

Additional observations from a re-analysis of the deposited data

Results flagged for a closer look

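The effect of sgEZH2-1 minus the effect of sgEZH2-2, tested as the direct contrast of the guides in edgeR, passed the threshold for 9 members. On the log2 scale it was 0.74 for OCLN, 0.58 for TJP1, 0.27 for DSC2, 0.24 for DSG2, 0.21 for MARVELD3, 0.21 for PKP2 and 0.20 for DSC3, and -0.42 for CLDN7 and -0.37 for TJP3. The 9 are 33.3% of the 27 tested members, against 21.9% of all genes tested. Both effects are measured against the same 2 Control libraries, which cancel in the contrast. EZH2 transcript also differed between the guides, with a log2 difference of -0.36 (adjusted p = 0.00844), and the part of that difference in the member results was not tested.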

How the results depend on the processing

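Of 26 calls on members, 21 were made under every alternative that kept all libraries (RLE and upper-quartile scaling, no filter, limma-voom, DESeq2, and fitting only the compared groups or, for the pooled comparison, the fit of 3 groups). The other 5 are CLDN1 pooled (limma-voom), CLDN1 and CLDN7 with sgEZH2-1 (compared groups only), and, between the guides, DSC3 (upper-quartile scaling) and MARVELD3 (no filter, DESeq2). Leaving out each library in turn, 8 calls were never lost: CGN, CGNL1, OCLN and TJP1 for sgEZH2-1 against Control, and CLDN7, DSG2, OCLN and TJP1 between the guides. No call reversed. Among members without a call, PERP had a log2 fold change of -0.15 with sgEZH2-2. It ranged from -0.30 to 0.01 as single libraries were left out, 0.01 being without Control library 2. Without single libraries DSG2, DSG3 and F11R gained a call with sgEZH2-1, CLDN4 and TJP3 with sgEZH2-2, and CGN, CLDN4, PKP1, F11R, DSP and JUP between the guides. Leaving out a guide library also moved all-gene counts. With sgEZH2-1, 1111 to 1492 genes were higher and 693 to 1145 lower, against 1478 and 1248 with all libraries. With sgEZH2-2 the counts were 550 to 957 and 110 to 408, against 811 and 328. Between the guides they were 692 to 1178 and 829 to 1456, against 1363 and 1511. In the same fits, members called higher and lower numbered 5 to 6 and 0 to 3 with sgEZH2-1. They numbered 1 to 4 and 2 to 4 with sgEZH2-2, and 3 to 8 and 1 to 3 between the guides. For both guides pooled they numbered 1 to 2 and 0 to 1, with 425 to 460 and 23 to 52 over all genes. With only the 2 groups compared, 0 members were lower with sgEZH2-1, and all genes called lower went from 1248 to 766. In the fit of 3 groups, both guides against Control gave 4 higher and 4 lower, with 1010 and 602 over all genes. Limma-voom gave 0 lower, with 63 over all genes. Calls that depended on a Control library are named with their genes above. No scaling moved the median of all genes by more than 0.016. No paired analysis was possible because the columns of the table carry no replicate number. With 2 Control libraries, small differences in low transcripts such as CLDN9, CLDN15, CLDN16 and CLDN23 were not detectable at this depth.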
